A study of Mus musculus with 4 samples.

Results

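The miR-17-92a cluster is a group of miRs cut from a single primary transcript, and it was followed here in proangiogenic cells (PACs) of mice with cardiovascular risk factors (CRFs). Members were taken by name, as every listed arm of miR-17, miR-18a, miR-19a, miR-20a, miR-19b and miR-92a, including the arm that the table names miR-92a-1-5p. This gave 10 of the 568 mature miRs of the table, namely both arms of miR-17, miR-18a, miR-20a and miR-92a, and the 3p arms of miR-19a and miR-19b. PACs are bone marrow cells that adhere to fibronectin in endothelial medium, bind lectin and take up acetylated low-density lipoprotein. They were grown for 4 days from marrow taken 2 days after the femoral artery had been removed, a model of hindlimb ischemia that all groups shared. The libraries were CTL (C57Bl/6, 2 months, no CRF), aging (C57Bl/6, 16 months), SMK (C57Bl/6, 2 months, cigarette smoke from 14 days before surgery) and HC. HC mice were APOE-/-, 2 months old and put on a Western-type diet 5 weeks ahead of surgery, so the deletion and the diet cannot be told apart. By the labels the CTL pool held 6 samples, the aging pool 2, and the SMK and HC pools 4 each, whereas the methods give a larger pool for aging. Each condition had 1 library with no replicate.

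Values are RPM, reads scaled by the authors to the size of each library. Each value was a whole multiple of the smallest value of its library, so a count is such a step, worth between 0.393 RPM (CTL) and 0.962 RPM (HC). The total was 2541732 counts for CTL and 1038986 for HC, with aging (1568958) and SMK (1670010) between them. These totals are smaller than the miRNA reads in the study's own read table, and which reads they leave out is not known. Of the totals, miR-21a-5p took between 26.7% and 31.3%. Folds divide the RPM in a CRF library by the RPM in CTL, and the range after each gives an exact 95% interval for 2 counts (conditional binomial, Clopper-Pearson). The intervals cover counting error only, and differences between mice, pools and cultures are not in them, so they compare libraries and not conditions. MiRs reaching 100 RPM in at least 1 of the libraries of a comparison were compared, with folds under 0.8 called lower and folds over 1.6 called higher. All 3 comparisons share the CTL library. In these mixed cells, fewer cells of a type and less of a miR per cell cannot be told apart.

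As background, the primary transcript Mir17hg is switched on by MYC and E2F factors in dividing cells, and Drosha cuts each hairpin out of it separately. The mature miRs can therefore reach different levels although they start from the same RNA. MiR-17-5p and miR-20a-5p repress regulators of the cell cycle and of cell death such as Cdkn1a and Bcl2l11, miR-18a and miR-19 repress antiangiogenic thrombospondin, and miR-92a-3p represses the integrin Itga5 and the transcription factors Klf2 and Klf4 in endothelial cells. In ischemic tissue, miR-92a-3p is known as an inhibitor of vessel growth.

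The 6 hairpins lie within 836 bases of chromosome 14 (GRCm38, 115043671 to 115044506, plus strand), in the order miR-17, miR-18a, miR-19a, miR-20a, miR-19b-1 and miR-92a-1. All are inside exon 2 of the noncoding gene Mir17hg (115042879 to 115046727, GENCODE). MiR-19b-3p and miR-92a-3p are also encoded on chromosome X, by Mir19b-2 and Mir92-2, with the same mature sequence, so their counts do not show from which locus they came. The arms are shown here because they share or differ in the seed, bases 2 to 8 in capitals, which pairs with target RNAs. Sequences are mature miRs of RefSeq (GRCm38.p6), 5′ to 3′.
miR-17-5p: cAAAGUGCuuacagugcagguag
miR-20a-5p: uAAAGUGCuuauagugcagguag
miR-18a-5p: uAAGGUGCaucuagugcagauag
miR-19a-3p: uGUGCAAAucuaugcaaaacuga
miR-19b-3p: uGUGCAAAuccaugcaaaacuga
miR-92a-3p: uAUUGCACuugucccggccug
miR-17-3p: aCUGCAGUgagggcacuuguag
miR-18a-3p: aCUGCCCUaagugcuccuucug
miR-20a-3p: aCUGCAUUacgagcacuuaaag
miR-92a-1-5p: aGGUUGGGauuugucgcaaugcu

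MiR-17-5p and miR-20a-5p have 1 seed in common and differ at 2 of 23 positions, and miR-19a-3p and miR-19b-3p share another and differ at 1 of 23. MiR-17-5p also differs at 1 position from miR-106a-5p of chromosome X. Reads that failed a perfect match were mapped with up to 2 mismatches, so how reads with errors were split between such near-identical miRs is uncertain. MiR-92a-3p has a seed that no other arm of the cluster holds, and 57.1% of its bases are G or C, the highest share among the 10 arms. The lowest is 34.8%, in miR-19a-3p.

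MiR-92a-3p was the arm that set the cluster apart between libraries. It was the 3rd most abundant arm in CTL and the 1st in aging, SMK and HC, where its level was 2.41, 2.38 and 4.64 times that of CTL. The other compared arms lay between 0.608-fold and 1.39-fold. With miR-92a-3p the cluster summed to 3404 RPM in CTL and 4081 in aging, then 4229 in SMK and 5905 in HC, whereas without it the sum was lower in each CRF library than in CTL.

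Counted over the cluster, 6 of the 10 arms were compared in each comparison, and all 6 had 100 RPM or more in CTL itself. In aging 1 arm was higher and 3 were lower, where 33.1% of all compared miRs were higher and 26.6% lower. In SMK 1 was higher and 2 were lower, against 20.5% and 14.4% of all compared miRs. In HC 1 was higher and 3 were lower, against 34.8% and 18.4%. MiR-92a-3p was the higher arm in each, and miR-17-5p was lower in each. The median log2 fold of the 6 arms was -0.29 (aging), -0.19 (SMK) and -0.33 (HC), beside 0.24, 0.20 and 0.32 over all compared miRs. Over all 10 arms it was 0.06, 0.16 and 0.44. The shares and medians of all compared miRs also count miRs that reached 100 RPM in the CRF library alone. Restricted to the 132 miRs with 100 RPM in CTL, the higher share was 23.5% (aging), 15.9% (SMK) or 25% (HC). The lower share of these 132 was 31.1%, 15.9% and 22%, respectively.

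**Figure D1:**
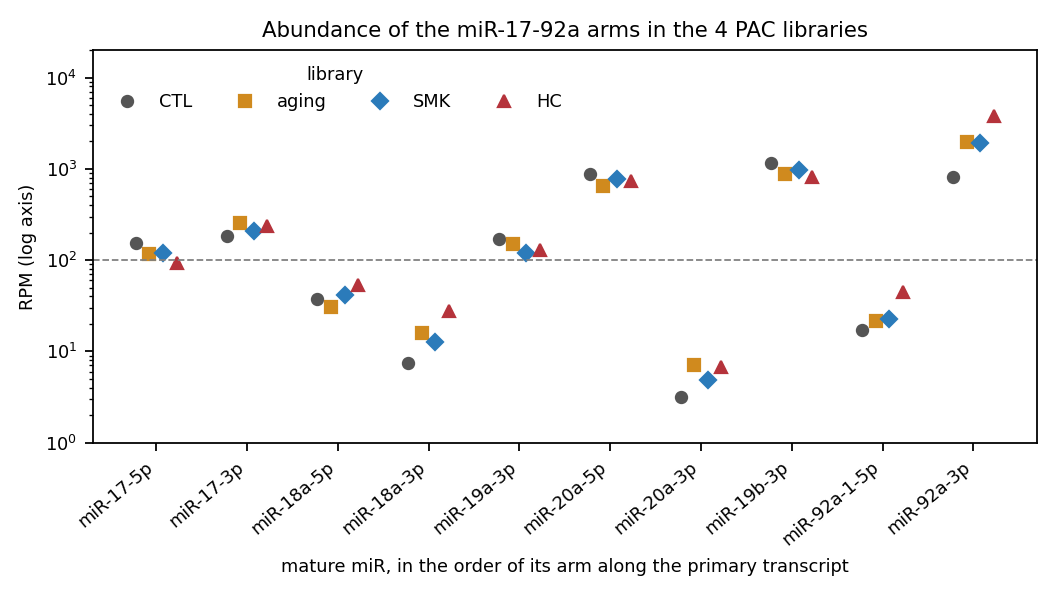
Level of the 10 arms of the miR-17-92a cluster in each library, on a log axis of RPM, with 1 point per library and a dashed line at 100 RPM. MiR-92a-3p runs from 811 RPM in CTL to 3760 RPM in HC, while miR-17-5p runs from 153 down to 93.4 RPM.

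The level of miR-92a-3p was 811 RPM in CTL against 1954 in aging, 1931 in SMK and as much as 3760 in HC, on 2062, 3066, 3225 and 3907 counts. Aging and SMK stood close together, CTL stood below them and HC above them. The folds were 2.41 (2.28–2.55) in aging, 2.38 (2.25–2.52) in SMK and 4.64 (4.39–4.89) in HC. HC was 1.95 times (1.86–2.04) the level of SMK. By level, miR-92a-3p moved from place 61 of the 568 miRs in CTL to place 46 (aging), 44 (SMK) and 30 (HC). Many miRs were higher in these libraries, and by fold miR-92a-3p was at place 25 of the 154 miRs compared in aging, 9 of the 146 in SMK and 12 of the 158 in HC.

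The rise of miR-92a-3p in HC went with a higher level of red cell miRs. These are named because miR-92a-3p is also abundant in red cells. Of 4 erythroid markers 3 were measured and none of these was at 0. Their sum was 59.0 RPM (CTL), 47.2 (aging), 74.3 (SMK) and 273 (HC). MiR-451a, the defining one, was at 22.4, 2.55, 14.4 and 52.0 RPM, respectively. From CTL to HC the sum of the markers rose by 214 RPM and miR-92a-3p by 2949 RPM. In aging, where miR-92a-3p was 1143 RPM above CTL, the marker sum was below CTL through miR-451a alone. MiR-486a-5p, at 4.33 RPM in CTL, was at 1.91-fold in aging and 3.18-fold in SMK. MiR-486b-5p was at 1.13-fold in aging and 1.43-fold in SMK. The part of red cells in the HC value was not tested. Other marker sums differed too. The 2 endothelial markers (miR-126a arms) summed to 29076 RPM in CTL and 13795 in aging, then 33683 in SMK and 18424 in HC. The 5 mesenchymal ones summed to 36417, 12457, 31326 and 23040 RPM, most of it miR-143-3p (27068 RPM in CTL), but they did not move together. MiR-143-3p and miR-199a-3p were below CTL in each CRF library. MiR-214-3p, the least abundant of them in CTL, was at 2.14-fold, 3.18-fold and 3.49-fold in aging, SMK and HC. MiR-145a-5p was at 0.532-fold, 1.32-fold and 1.05-fold, and miR-199a-5p at 0.574-fold, 1.16-fold and 0.990-fold. The 4 hematopoietic ones, which mark the cells of origin, summed to between 60359 and 77099 RPM. In HC they were at 1.65-fold (miR-223-3p), 1.18-fold (miR-223-5p), 1.58-fold (miR-142a-5p) and 0.857-fold (miR-142a-3p). Lymphoid miR-150-5p lay between 35.6 and 43.1 RPM, and no measured marker was at 0. The part of these differences in the folds of the cluster was not tested.

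MiR-17-5p, the arm for which the cluster's cell cycle role is best known, was at 153 RPM in CTL against 115 in aging, 120 in SMK and 93.4 in HC. All 3 CRF libraries were below CTL, with HC the lowest. The folds were 0.752 (0.627–0.899) in aging, 0.781 (0.655–0.928) in SMK and 0.608 (0.482–0.762) in HC. In SMK and in aging the interval reached above the limit of 0.8, and in HC it lay wholly below it.

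MiR-20a-5p, which has the seed of miR-17-5p, was at 872 RPM (CTL), 655 (aging), 783 (SMK) and 734 (HC). It was below CTL in each CRF library, but only the fold of aging, 0.751 (0.697–0.809), was past the limit. In SMK it was 0.897 (0.837–0.961) and in HC 0.842 (0.774–0.915). The ratio of miR-20a-5p to miR-17-5p was 5.68 in CTL and in aging, 6.54 in SMK and 7.87 in HC. This last ratio was 1.38 times (1.09–1.75) that of CTL.

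The miR-19 arms, which share a seed, were both below CTL. MiR-19b-3p, the most abundant arm in CTL, was at 1147 RPM there, 877 in aging, 983 in SMK and 818 in HC. Its folds of 0.764 (0.716–0.815) in aging and 0.713 (0.660–0.770) in HC were past the limit, and 0.857 (0.806–0.911) in SMK was not. MiR-19a-3p was at 171, 149, 120 and 128 RPM, with folds of 0.873 (0.742–1.03), 0.705 (0.593–0.835) and 0.750 (0.613–0.912). It was past the limit in SMK and HC, so each miR-19 arm was past it in HC. The 2 arms summed gave 0.779-fold in aging, 0.837 in SMK and 0.718 in HC.

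MiR-17-3p, the other arm of the miR-17 hairpin, was at 184 RPM in CTL and 255 in aging, then 211 in SMK and 237 in HC. It was above CTL, opposite to miR-17-5p, and between the limits in each comparison. The folds were 1.39 (1.21–1.59), 1.15 (0.996–1.32) and 1.29 (1.10–1.51). This direction depends on the scaling between libraries, since scaling to total reads gave 0.942 in aging, 0.849 in SMK and 0.795 in HC. Here and below, that scaling multiplied RPM by the share of miRNA reads among total reads in the study's read table, relative to CTL. Recovered counts divided by total reads were not used and would give other values, because the recovered totals are smaller than the miRNA reads.

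The remaining 4 arms were under 100 RPM in all libraries and were not called. MiR-18a-5p, which has a seed of its own, was at 37.8 RPM in CTL against 30.6 in aging, 41.3 in SMK and 53.9 in HC. Its interval included 1 in aging and SMK, and in HC the fold was 1.43 and the interval lay just above 1, but the fold became 0.881 when scaled to total reads. MiR-18a-3p was at 7.48, 15.9, 12.6 and 27.9 RPM, so that HC held 3.73 times (2.02–7.05) the CTL level, on 29 and 19 counts. MiR-92a-1-5p, the only mature arm that marks the chromosome 14 copy of miR-92a, was at 17.3, 21.7, 22.8 and 45.2 RPM. Its fold was 2.61 (1.70–4.04) in HC, and in aging (1.25, 0.776–2.00) and SMK (1.31, 0.829–2.08) the interval included 1. MiR-20a-3p rested on 7 to 11 counts, and the interval of its fold included 1 in each comparison.

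**Figure D2:**
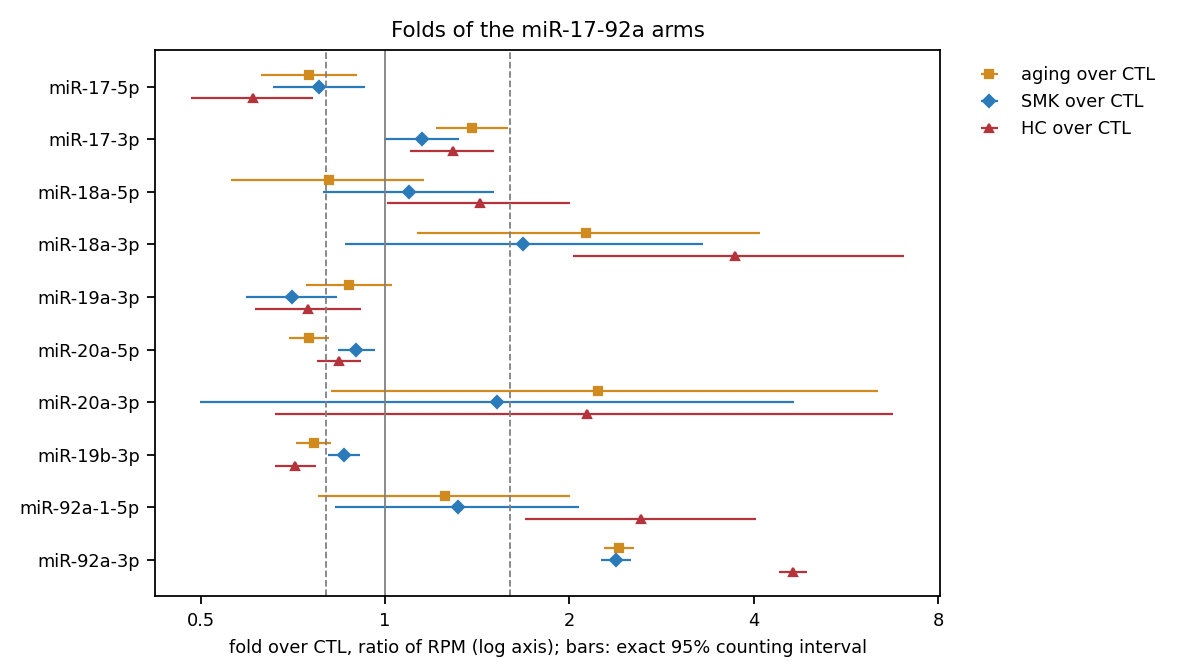
Fold of each arm over CTL in aging, SMK and HC, on a log axis, with exact 95% counting intervals as bars and dashed lines at 0.8 and 1.6. MiR-92a-3p lies beyond 1.6 in all 3 comparisons, and the intervals are widest for miR-20a-3p and miR-18a-3p, which had the fewest counts.

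The summed level of the cluster was 1.20 times CTL (1.16–1.24) in aging, 1.24 times (1.20–1.28) in SMK and 1.73 times (1.68–1.79) in HC. Without miR-92a-3p it was 0.820 (0.787–0.855), 0.886 (0.851–0.922) and 0.827 (0.788–0.868). Scaled to total reads, the first set became 0.813 in aging and 0.920 in SMK, below 1, and 1.07 in HC, whereas the second stayed below 1 under each scaling that was run.

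Shares and ratios within a library do not depend on the scaling between libraries. They still carry the GC trend across miRs described below, because the arms differ in GC content. In HC over CTL, removing that trend moved the fold of miR-92a-3p from 4.64 to 2.29 and that of miR-19b-3p from 0.713 to 0.693. The part of GC content in the shares and ratios was not tested. MiR-92a-3p made up 23.8% of the cluster's counts in CTL (22.9–24.7, exact binomial) but 47.9% in aging (46.7–49.1), 45.7% in SMK (44.5–46.8) and 63.7% in HC (62.5–64.9). The intervals of aging and SMK overlapped, and CTL and HC stood apart from both. MiR-19b-3p held 33.7% (CTL), 21.5% (aging), 23.2% (SMK) and 13.9% (HC). MiR-20a-5p held 25.6%, 16.1%, 18.5% and 12.4%, and miR-17-5p 4.51%, 2.83%, 2.83% and 1.58%. All of these were largest in CTL and smallest in HC.

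**Figure D3:**
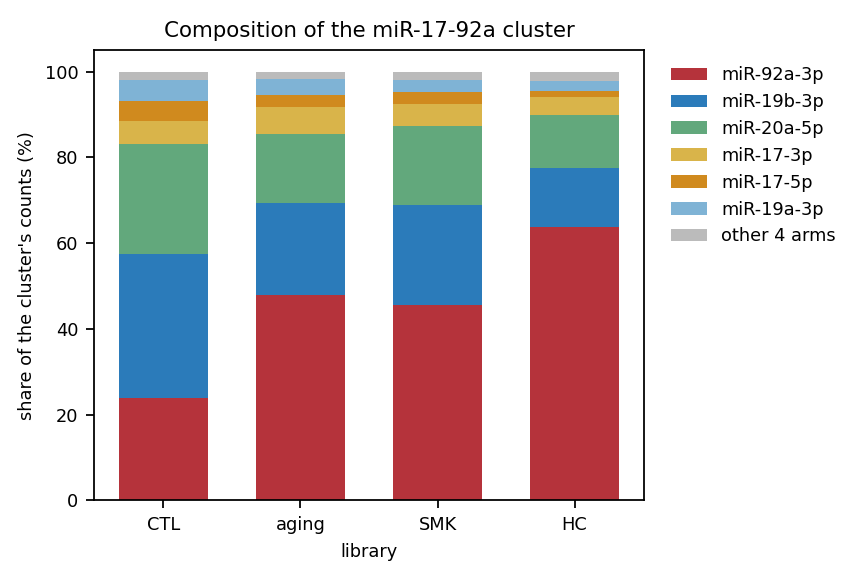
Share of each arm in the counts of the miR-17-92a cluster, in percent, with 1 stacked bar per library. MiR-92a-3p takes 23.8% of the CTL bar and 63.7% of the HC bar, and miR-19b-3p shrinks from 33.7% to 13.9%.

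There were 5.29 counts of miR-92a-3p for each count of miR-17-5p in CTL, and this was 16.9 (aging), 16.1 (SMK) and 40.3 (HC). The change against CTL was 3.20-fold, 3.05-fold and 7.62-fold. Against miR-19b-3p the ratio was 0.707 in CTL and 2.23 in aging, then 1.96 in SMK and 4.60 in HC, and against miR-20a-5p it was 0.930, 2.98, 2.47 and 5.12. Relative to the sum of miR-17-5p, miR-18a-5p, miR-19a-3p and miR-20a-5p, which have a single locus each, it was 0.657, 2.06, 1.81 and 3.72. Each of these 4 ratios was lowest in CTL, followed by SMK, aging and HC, although for miR-17-5p the intervals of SMK and aging overlapped. Against miR-19a-3p SMK lay above aging, with ratios of 4.75 (CTL), 13.1 (aging), 16.0 (SMK) and 29.4 (HC). Among the arms that did not rise, ratios moved less: miR-19b-3p over miR-20a-5p was 1.32, 1.34, 1.26 and 1.11 in CTL, aging, SMK and HC.

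By level, the order of the arms in CTL was miR-19b-3p, miR-20a-5p, miR-92a-3p, miR-17-3p, miR-19a-3p, miR-17-5p, miR-18a-5p, miR-92a-1-5p, miR-18a-3p and miR-20a-3p. Neighbours from miR-17-3p to miR-17-5p, and miR-18a-3p and miR-20a-3p, did not differ beyond counting error. In aging, SMK and HC miR-92a-3p headed the list and the other 9 arms kept this order. There, miR-18a-5p and miR-92a-1-5p did not differ beyond counting error in aging and HC, nor did miR-92a-1-5p and miR-18a-3p, and in SMK the same was true of miR-19a-3p and miR-17-5p. Levels of different miRs also carry how well each sequence is ligated and amplified, so the order is that of counts and need not be that of molecules in the cells.

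The 2 arms of a hairpin start from the same RNA, and their balance shifted in the miR-17 hairpin. The ratio of miR-17-5p to miR-17-3p was 0.835 (0.728–0.957) in CTL against 0.453 (0.378–0.541) in aging, 0.568 (0.475–0.678) in SMK and 0.394 (0.308–0.501) in HC. The 3p arm was the more abundant in each library, and the ratio fell to 0.542, 0.680 and 0.472 of its CTL value. In the miR-18a hairpin the ratio was 5.05 (CTL), 1.92 (aging), 3.29 (SMK) and 1.93 (HC). It was 0.380 (0.191–0.757) and 0.382 (0.196–0.744) of the CTL value in aging and HC, and in SMK the interval of the change, 0.325 to 1.30, included 1. In the miR-20a hairpin, where the 3p arm rested on 7 to 11 counts, the ratio was 0.337 (0.135–0.841) of its CTL value in aging. In SMK (0.590, 0.221–1.57) and HC (0.393, 0.142–1.09) the interval included 1. In the miR-92a hairpin, where the 3p arm also comes from chromosome X, there were 46.9 counts of miR-92a-3p for each of miR-92a-1-5p (CTL), and 90.2 (aging), 84.9 (SMK) and 83.1 (HC). The change was 1.92 (1.23–3.02), 1.81 (1.17–2.81) and 1.77 (1.17–2.69), and the intervals of the 3 CRF libraries overlapped. Such shifts were frequent in these libraries: the ratio of the 5p to the 3p arm was below 0.8 of its CTL value for 35 of the 82 hairpins of the aging comparison (42.7%), 32 of 87 for SMK (36.8%) and 34 of 77 for HC (44.2%). These are the hairpins whose 2 arms are listed singly under the same miR name, with at least 10 counts of each arm in both libraries. Hairpins with an arm named by locus, such as miR-92a-1-5p, are not among them.

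**Figure D4:**
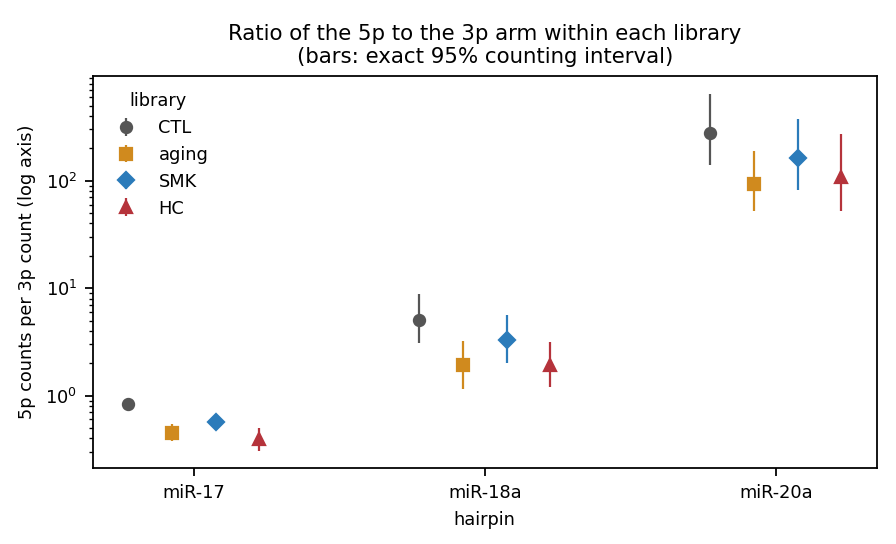
Ratio of the 5p to the 3p arm of miR-17, miR-18a and miR-20a in each library, on a log axis, with exact 95% counting intervals as bars. The miR-17 ratio is 0.835 in CTL and between 0.394 and 0.568 in the CRF libraries.

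The paralogous clusters were measured beside it. Of 20 arms in the list of paralogs and seed relatives, 12 were in the table and 3 had 100 RPM. MiR-93-5p, from the Mcm7 intron and with the seed of miR-17-5p, was the most abundant of them, at 3312 RPM in CTL and 3254 in aging, then 3704 in SMK and 4186 in HC. With it, the 6 measured miRs of this seed summed to 0.926-fold in aging, 1.06-fold in SMK and 1.15-fold in HC. Scaled to total reads these became 0.629, 0.785 and 0.711, so the direction in SMK and HC depends on the scaling. Without miR-93-5p the sum was 0.750-fold, 0.880-fold and 0.802-fold.

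The seed relatives of miR-92a-3p were higher in part. They are shown with the shared seed in capitals (RefSeq, GRCm38.p6).
miR-92a-3p: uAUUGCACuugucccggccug
miR-25-3p: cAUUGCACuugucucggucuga
miR-92b-3p: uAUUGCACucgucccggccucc
miR-32-5p: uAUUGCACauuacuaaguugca
miR-363-3p: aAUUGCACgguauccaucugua

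MiR-25-3p, of the same transcript as miR-93, was at 2316 RPM in CTL against 2580 in aging, 2421 in SMK and 3162 in HC. Its folds were 1.11 (1.07–1.16), 1.05 and 1.37 (1.31–1.43), all between the limits. Scaled to total reads they became 0.756, 0.774 and 0.843, all below 1. MiR-92a-3p lay below miR-25-3p in CTL, at 0.350 of its level, and above it in HC, at 1.19. MiR-92b-3p was low, at 4.33, 18.5, 14.4 and 34.6 RPM, on 11 to 36 counts, and HC held 8.01 times (3.99–17.4) the CTL level. It differs from the far more abundant miR-92a-3p at 2 of 21 positions, within the mismatches allowed in the later mapping. How reads with errors were split between these miRs is uncertain. MiR-32-5p was at 66.5, 80.3, 61.1 and 56.8 RPM, and each of its 3 intervals included 1. MiR-363-3p rested on 5 to 20 counts, and its interval excluded 1 in aging alone (4.63, 1.88–13.0). The seed family of 5 summed to 1.45-fold in aging, 1.39-fold in SMK and 2.19-fold in HC, and to 0.985, 1.03 and 1.35 when scaled to total reads. GC content differs among these relatives, with 63.6% in miR-92b-3p, 57.1% in miR-92a-3p, 50% in miR-25-3p, 40.9% in miR-363-3p and 31.8% in miR-32-5p.

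GC content went with the fold over all compared miRs that had a RefSeq sequence. As a description across miRs, which share their libraries and are not replicates, Pearson's r between GC and log2 fold was 0.370 in aging (138 miRs), 0.478 in SMK (132) and 0.567 in HC (141). Of miRs with at least 50% GC, 25 of 51 (aging), 17 of 46 (SMK) and 32 of 54 (HC) were higher. Below 40% GC, 2 of 32, 1 of 31 and 1 of 32 were higher. Lower miRs went the other way, with 10, 1 and 3 at 50% GC or more and 13, 9 and 10 below 40% GC. Of the cluster, miR-19a-3p (34.8%), miR-19b-3p and miR-20a-5p (both 39.1%) are below 40% GC. MiR-17-5p, at 47.8%, is in neither class. Among the miRs with at least 50% GC, miR-92a-3p was at place 13 from the top in aging, 6 in SMK and 8 in HC. With the linear trend on GC removed, which also centres the folds at 0, miR-92a-3p had a fold of 1.54 in aging, no longer past the limit, 1.63 in SMK and 2.29 in HC. What the GC trend comes from was not tested.

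**Figure D5:**
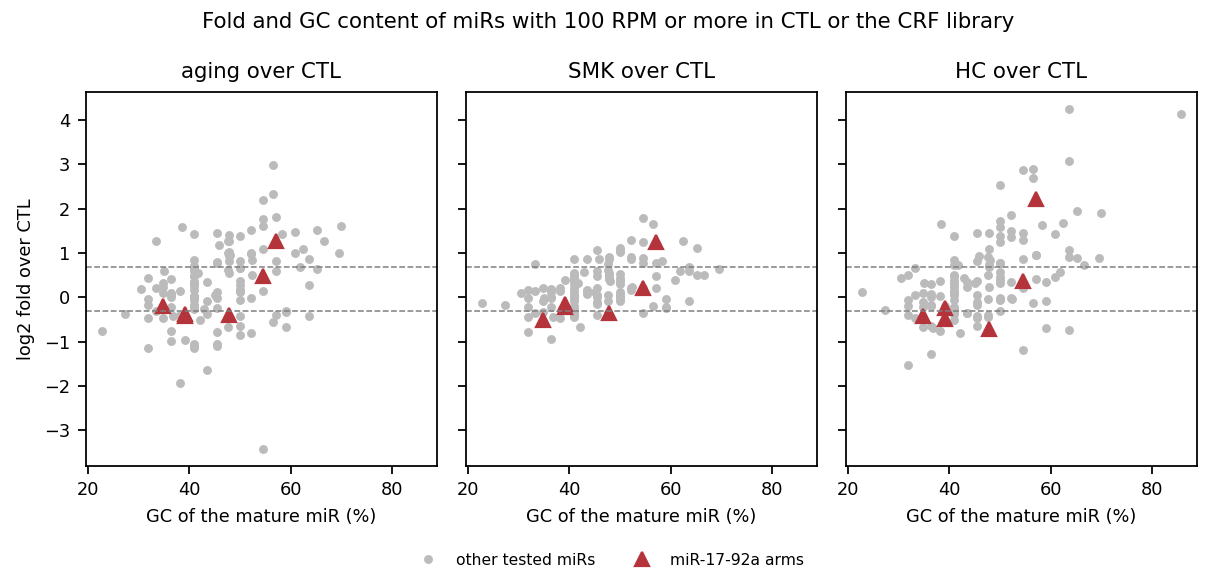
Log2 fold over CTL against the GC content of the mature miR in percent, with 1 panel per comparison, triangles for the compared arms of the miR-17-92a cluster, grey points for the other compared miRs and dashed lines at 0.8 and 1.6. MiR-92a-3p, at 57.1% GC, is the highest triangle in each panel, and miR-19a-3p, at 34.8%, is the leftmost.

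The miRs most like miR-92a-3p over the 4 libraries were sought among 161 miRs with 100 RPM in at least 1 library, by the Euclidean distance of log2 RPM centred on each miR's mean. They were miR-342-3p (distance 0.341), miR-674-3p (0.352) and miR-320-3p (0.364). MiR-342-3p was at 1187, 2379, 2919 and 4301 RPM, and miR-320-3p at 65.7, 215, 189 and 416 RPM in CTL, aging, SMK and HC. MiR-674-3p was at 22.0, 72.0, 70.1 and 128 RPM, so it met the minimum through HC alone. MiR-320-3p met it through the CRF libraries and not through CTL. The minimum thus admits miRs low in CTL only if they are high in a CRF library, as miR-92a-3p is, so the likeness of these miRs is partly selected. No other compared arm of the cluster was as near, since they lay between 1.32 (miR-17-3p) and 2.08 (miR-17-5p), and the median over all was 1.41. For miR-17-5p the nearest were miR-101c (0.0751), miR-140-5p (0.123) and miR-7a-5p (0.177), followed within the cluster by miR-19b-3p at 0.183, miR-19a-3p at 0.353 and miR-20a-5p at 0.385. MiR-17-3p stood at 0.820 from it, and the median over all miRs was 0.901. These distances rest on 4 libraries and describe these libraries only.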

How the data were processed

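The authors pooled RNA by condition, prepared libraries with a QIAseq kit and sequenced them on a NextSeq instrument. Per the methods, reads were mapped with bowtie, first by perfect match to mature miRs of miRBase 21 and later with up to 2 mismatches. HTSeq 0.5.4, TopHat2 2.0.10 and bcl2fastq 2.20 are named in the submitters' processing notes, which differ from the methods. Whether reads with the same molecular identifier were merged is not given in the sources used here. The deposited values are RPM, normalized by the authors to library size.

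Each RPM was divided by the smallest of its library. This gave whole counts for 100% of values, within 0.001 count. The interval of a change in a ratio is log-normal, from its 4 counts. A count test across miRs was not run, because 1 library per condition leaves no spread to estimate. All arms of the cluster were named, with paralogs and seed relatives from a list, and the 3 nearest miRs of miR-92a-3p and miR-17-5p. The members and lists were chosen with earlier results of these data known. RefSeq gave a mature sequence for 487 of 568 miRs. Alternatives were other minimums, limits, scalings and pseudocounts, a GC trend removed and SMK as the reference. Scaling to total reads multiplied RPM by the share of miRNA reads among total reads, and did not divide the recovered counts by total reads. Python 3.11.15 (numpy 2.4.6, scipy 1.17.1, pandas 2.3.3, matplotlib 3.10.9) was used, with R 4.3.3 and edgeR 4.0.16 for the trimmed mean factors only. The raw reads and cell assays were not analysed here.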

Additional observations from a re-analysis of the deposited data

How the results depend on the processing

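Of the scalings, 3 lowered every log2 fold, a median ratio of miRs by 0.19 (aging), 0.14 (SMK) and 0.20 (HC), a trimmed mean of log ratios by 0.39, 0.24 and 0.43, and total reads by 0.56, 0.43 and 0.70. Totals without miR-21a-5p moved them by -0.09, 0.01 and -0.07. MiR-92a-3p ranged from 1.54 to 2.41 in aging, from 1.63 to 2.39 in SMK and from 2.29 to 4.64 in HC over the scalings, pseudocounts and GC removal. The share of all compared miRs called in the same direction stands in parentheses after each count of arms. In aging, the 1 higher arm became 3 with no minimum (41.5%) and 0 with the GC trend removed (16.7%) or with SMK as the reference (4.58%), and the 3 lower arms became 0 with limits of 0.6 and 2 (13.6%), with the interval required past the limit (16.9%), or with SMK as the reference (22.2%). In SMK, 1 higher arm became 2 with no minimum (32%), and 2 lower arms became 4 with the trimmed mean (27.1%) or total reads (42.9%) and 0 with the wider limits (1.37%) or the interval (6.16%). In HC, 1 higher arm became 4 with no minimum (43.5%), and 3 lower arms became 5 with total reads (60.1%), 0 with the wider limits (5.06%) and 1 with SMK as the reference (10.9%). With the GC trend removed HC kept 3 lower arms (34.8%), but they were not the same ones. MiR-19a-3p, at 0.858-fold, was no longer lower, and miR-17-3p, at 0.701-fold, was. MiR-17-5p taken as its summed seed family turned to 1.06 in SMK and 1.15 in HC, as deposited, but with the trimmed mean these sums were 0.901 and 0.858. For HC over SMK, which is another comparison, miR-19a-3p was at 1.06 (0.848–1.33), and the interval included 1. No paired analysis was possible because each condition had 1 library. Counts of 7 to 96 for the 4 least abundant arms limit what can be seen of them.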

Other observations

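In the miR-106b-25 cluster, which lies in an intron of Mcm7, the miR-106b arms lay on opposite sides of CTL in HC. MiR-106b-3p was at 127.5 RPM (CTL), 233 (aging), 193 (SMK) and 268 (HC), with folds of 1.83 (1.57–2.13), 1.52 (1.30–1.78) and 2.10 (1.78–2.47). Scaled to total reads these became 1.24, 1.12 and 1.30, all under the limit of 1.6. MiR-106b-5p, which has the seed of miR-17-5p, was at 19.3, 15.3, 16.8 and 6.74 RPM, with folds of 0.793 (0.466–1.32), 0.870 (0.526–1.41) and 0.349 (0.134–0.776). The interval included 1 in aging and SMK, and the HC value rests on 7 counts. MiR-93-3p was at 16.9, 34.4, 38.3 and 56.8 RPM, and HC held 3.36 times (2.23–5.09) the CTL level, or 2.07 times when scaled to total reads. In HC miR-93-5p of the same hairpin was at 1.26 times (1.22–1.31), or 0.780 times when scaled to total reads. MiR-106b-3p has 63.6% GC and miR-106b-5p 42.9%, and the part of GC content in these values was not tested.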
